A study of Mus musculus with 6 samples.

Results

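Extracellular proteases, their inhibitors, and the collagens, integrins and laminins of the matrix and its attachment were examined in colon of mice given perfluorooctanoic acid (PFOA), a fluorinated surfactant that persists in the environment, over a long term. The members were the protein-coding rows of the deposited table whose gene symbol belongs to the protease families ADAM, MMP, PRSS, TMPRSS, kallikrein, cathepsin, meprin, carboxypeptidase A and B or pappalysin, to the inhibitor families serpin, SPINK or TIMP, or to the collagen, integrin or laminin families, together with Casp14. The rule found 41 of the 2033 listed rows. Counted by symbol, these were 27 proteases, 5 protease inhibitors, 3 collagens, 4 integrin subunits, 1 laminin chain and Adamtsl1, an ADAMTS-like protein without a protease domain. The groups were colon of PFOA-exposed mice and colon of control mice, with 3 libraries each. The labels give no dose, duration, strain, age, sex or part of the colon, and speak of 6 frozen mice in each group but do not tie a mouse to a library, and every p-value therefore reflects only how far these libraries spread, with n = 3 per group throughout. A difference in the sampled part of the colon therefore cannot be told apart from an effect of the exposure.

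Proteases outside the cell cut matrix proteins, activate other proteins by removing part of them, and release growth factors, while serpins, SPINK proteins and TIMPs block them. Collagens and laminins form the scaffold under and around the epithelium, and integrins are the receptors by which cells hold on to it. In the gut, membrane-bound and secreted proteases also digest luminal proteins and process mucus, and inhibitors of the SPINK family guard the tissue against trypsin-like enzymes.

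The deposited table held raw read counts for rows that all differ between the groups. By mean raw count, no row with counts in both groups lay between a log2 ratio of -1.08 and 0.92. The listed counts of a library summed to between 1771120 and 2269892 and are not its sequencing depth. Because of this selection, passing a test here is no evidence of an effect, and nothing is known of a family member that has no row. Levels are given in CPM, the usual per-library scaling of counts, here of the listed counts with TMM adjustment.

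In these data all 5 protease inhibitors were lower in PFOA colon, all 3 collagens were higher, and proteases and integrins went both ways. Proteases were higher in 11 and lower in 16 of 27 rows, and integrin subunits were higher in 2 and lower in 2 of 4 rows. Over all members, 17 rows were higher and 24 lower, where 50.9% of all listed rows were higher and 49.1% lower. In the CPM of the 6 libraries the groups did not overlap for any of the 41 members, as for 97.1% of all listed rows. For Prss23 this depended on the TMM adjustment. TMM takes most rows as unchanged, whereas the rows listed here all differ. The low-count filter of edgeR kept 36 of the 41 rows for its quasi-likelihood test, of which 14 passed as higher and 22 as lower at an adjusted p under 0.05. Of all tested rows, 100% passed, with 50.0% higher and 50.0% lower, so the number of members past the test carries no information beyond their direction. The median log2 fold change of the tested members was -1.17, against -1.06 over all tested protein-coding rows and -0.03 over all tested rows. The medians near -1 lie at the lower edge of the gap that the selection left.

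**Figure D1:**
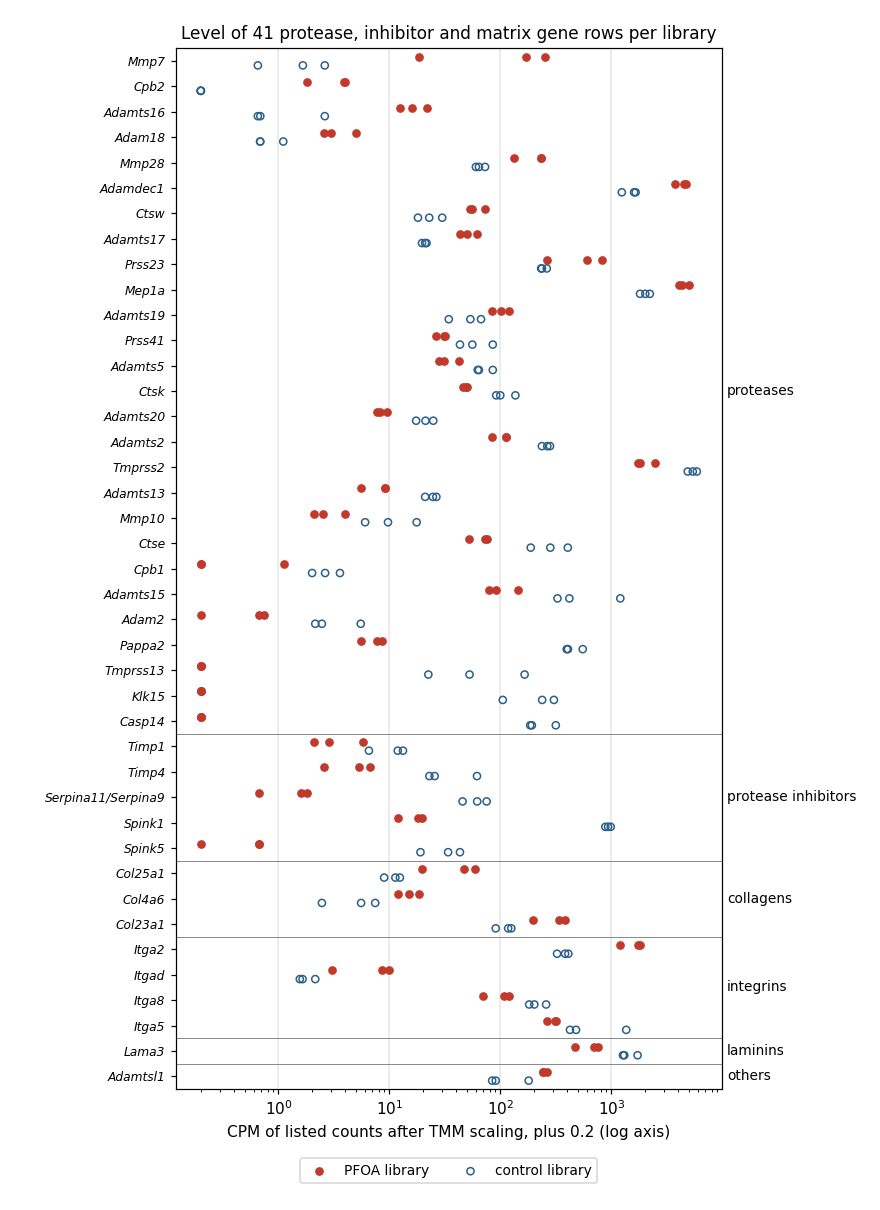
Level of each of the 41 members in each library, in CPM of the listed counts plus 0.2 on a log axis, with filled points for the 3 PFOA libraries above open points for the 3 control libraries of the same row. Inhibitors sit to the left in PFOA and collagens to the right, Casp14, Klk15 and Tmprss13 have all PFOA points at the left edge, where a row has no count, and the points of the groups come closest for Prss23.

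The largest differences were losses. Among the members, 7 rows were at least 10-fold lower in PFOA and 2 rows at least 10-fold higher, where 10.8% and 10.5% of all listed rows reached that size in each direction. Those lower were the proteases Casp14, Klk15, Tmprss13 and Pappa2 and the inhibitors Spink1, Spink5 and the merged Serpina11 and Serpina9 row. Those higher were Mmp7 and Adamts16.

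Casp14, Klk15 and Tmprss13 had no count in any PFOA library. Casp14, a caspase of cornifying skin cells that acts inside the cell and is a member by name only, had 0, 0 and 0 counts in PFOA colon and 648, 397 and 410 counts in control colon. It was at least 470-fold lower against a floor of 3 counts over the PFOA group (edgeR adjusted p = 1.05e-04, 3 libraries a group). Klk15, a kallikrein-related serine protease first described in human prostate, had 0, 0 and 0 counts in PFOA and 623, 217 and 525 counts in control, at least 441-fold lower (edgeR adjusted p = 2.76e-04). Every control library held at least 217 counts of each of these genes and no PFOA library held any. Tmprss13, a serine protease anchored in the epithelial cell membrane, had 0, 0 and 0 counts in PFOA and 339, 46 and 116 counts in control. Its control libraries were uneven, with control replicate 1 far above the others. It was at least 162-fold lower (edgeR adjusted p = 0.00176), and at least 77.5-fold lower without control replicate 1. When any other library was left out, its bound lay between 105- and 219-fold; those of Casp14 and Klk15 lay between 306- and 519-fold and between 287- and 551-fold over all 6 libraries left out, where a bound against fewer PFOA libraries is smaller by construction. Of 21 markers of squamous epithelium and skin, where Casp14 and Spink5 are best known, 3 had a row, 1 higher and 2 lower in PFOA. Their summed level was 3.27 to 14.5 CPM in PFOA and 2.72 to 11.2 CPM in control, a sum over rows that went opposite ways. The PFOA sum was that of Dsg3 alone, with 27, 7 and 7 counts in PFOA and 0, 2 and 1 counts in control. Defining squamous keratin genes such as Krt5 and Krt14 had no row, and the only listed keratins of that list, Krt13 and Krt16, had 0 counts in PFOA and at most 18 counts in a control library. The part of squamous tissue in these losses was not tested.

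For Casp14 and Klk15, which had no PFOA count, the 250 bases before the RefSeq transcription start are shown as the sequence next to their annotated starts. The build is GRCm38.p6, the assembly also called mm10. The Casp14 window lies on the minus strand at chr10:78718294-78718543 and the Klk15 window on the plus strand at chr7:43931425-43931674. Sequences are given 5′ to 3′ on the gene's strand and end at the base before the start. Capitals mark a TATAAA box and the sequence CAATAAA, a core bound by posterior Hox and Cdx proteins in published work on those families.
Casp14: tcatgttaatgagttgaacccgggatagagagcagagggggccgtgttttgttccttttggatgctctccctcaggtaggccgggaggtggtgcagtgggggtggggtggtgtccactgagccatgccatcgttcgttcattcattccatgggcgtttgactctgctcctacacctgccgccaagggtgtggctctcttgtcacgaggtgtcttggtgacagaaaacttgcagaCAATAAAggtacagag
Klk15: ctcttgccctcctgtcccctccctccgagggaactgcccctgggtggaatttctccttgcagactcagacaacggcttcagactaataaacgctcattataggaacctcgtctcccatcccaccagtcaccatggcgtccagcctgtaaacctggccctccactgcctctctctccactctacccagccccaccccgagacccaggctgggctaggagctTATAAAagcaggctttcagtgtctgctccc
The counted Klk15 row begins at position 43931657, inside the printed window, and the RefSeq start was not matched to a GENCODE transcript, so distances for Klk15 hold for the RefSeq start only. Klk15 has TATAAA with its first base 30 bases before that start, and Casp14 has CAATAAA with its first base 16 bases before the start. Searched on both strands, TATAAA (reverse TTTATA) occurred in 12.4% and CAATAAA (reverse TTTATTG) in 4.2% of 32851 promoter windows of this length in the RefSeq table. Among 25 members with a window there, TATAAA occurred in 3 and CAATAAA in 2. A match describes the letters only.

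Metalloproteases, counted by family, formed the largest protease group here, with 16 rows, 8 higher and 8 lower in PFOA. Mmp7, matrilysin, which in mouse activates the alpha-defensins of Paneth cells, had 34, 365 and 536 counts in PFOA and 3, 5 and 1 counts in control. Its row spans chr9:7692090-7699585 on the plus strand in mm10. All PFOA libraries were above all control libraries, but PFOA replicate 1 was far below the other PFOA libraries. Mmp7 was 107-fold higher (log2 fold change of 6.62 with an SE of 1.09; edgeR adjusted p = 0.00122), and its log2 fold change was 6.00 without PFOA replicate 3 and 6.04 with limma-voom. Of 11 Paneth cell markers only Mmp7 and Mptx2 had a row. Mptx2, a mucosal pentraxin of Paneth cells, went the other way, with 6, 66 and 92 counts in PFOA and 132, 3403 and 2040 counts in control. Defining Paneth markers such as Lyz1, Defa24 and Itln1 had no row, so their level is not known here.

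Mmp10, stromelysin 2, lies 182 kb from Mmp7 on chromosome 9 and was lower in PFOA. It had 7, 4 and 5 counts in PFOA and 12, 36 and 21 counts in control, 4.18-fold lower at low counts (log2 fold change -2.03 ± 0.53, SE; edgeR adjusted p = 0.00696). Mmp28, epilysin, was higher, with 248, 492 and 498 counts in PFOA and 149, 124 and 141 counts in control (log2 fold change 1.60 ± 0.29, SE; edgeR adjusted p = 0.00165). PFOA replicate 1 was again the lowest of its group for Mmp28, though above every control library. The start regions of the 2 neighbouring genes that went opposite ways are shown for comparison, with the AP-1 motif TGANTCA, long known from MMP promoters, and the motifs named above in capitals. The Mmp7 window is on the plus strand at chr9:7691840-7692089 and the Mmp10 window on the plus strand at chr9:7502092-7502341 (GRCm38.p6, RefSeq).
Mmp7: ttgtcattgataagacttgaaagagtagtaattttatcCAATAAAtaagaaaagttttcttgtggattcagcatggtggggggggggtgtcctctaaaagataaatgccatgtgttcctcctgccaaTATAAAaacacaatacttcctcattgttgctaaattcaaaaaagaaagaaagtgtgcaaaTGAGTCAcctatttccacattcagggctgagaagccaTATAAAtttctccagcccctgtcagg
Mmp10: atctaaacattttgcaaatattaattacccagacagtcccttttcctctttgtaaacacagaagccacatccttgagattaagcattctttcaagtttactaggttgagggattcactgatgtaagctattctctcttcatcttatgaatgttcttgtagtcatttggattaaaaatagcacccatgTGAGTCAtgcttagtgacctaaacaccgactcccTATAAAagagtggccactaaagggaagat
Both windows hold TGAGTCA with its first base 63 bases before the start and a TATAAA close to the start, with its first base 26 bases away in Mmp7 and 29 bases away in Mmp10. Mmp7 also holds a second TATAAA whose first base is 123 bases away and CAATAAA whose first base is 212 bases away. TGANTCA, which reads the same on both strands, occurred in 6.75% of the 32851 windows and in those of 3 of 25 members, the third being Prss23. A role of these letters in the opposite directions of Mmp7 and Mmp10 was not tested.

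The ADAMTS family, secreted metalloproteases that cut proteoglycans, procollagens and other matrix proteins, had 8 protease rows, 3 higher and 5 lower. Adamts2, the procollagen N-proteinase, had 211, 179 and 240 counts in PFOA and 543, 489 and 618 counts in control, 2.54-fold lower (log2 fold change -1.34 ± 0.23, SE; edgeR adjusted p = 0.00132). Adamts15, which cuts proteoglycans such as versican, had 270, 195 and 170 counts in PFOA and 2472, 676 and 924 counts in control. Control replicate 1 stood far above the other control libraries, and without it the log2 fold change of Adamts15 moved from -2.63 ± 0.54 (SE) to -1.96 (edgeR adjusted p = 0.00264 with and 0.00255 without it). Adamts5, another proteoglycan-cutting member, had 79, 65 and 60 counts in PFOA and 175, 129 and 141 counts in control. Adamts13, which cuts von Willebrand factor, had 10, 19 and 19 counts in PFOA and 54, 43 and 54 counts in control. Adamts20, the gene mutated in belted mice, had 14, 17 and 20 counts in PFOA and 43, 51 and 38 counts in control. These 3 genes were between 2.12- and 3.05-fold lower.

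Adamts16, Adamts17 and Adamts19 were higher in PFOA. Adamts16 had 23, 46 and 34 counts in PFOA and 1, 5 and 1 counts in control, 15.2-fold higher (log2 fold change 3.84 ± 0.59, SE; edgeR adjusted p = 9.00e-04). Its control counts were so low that the log2 fold change was 4.93 without control replicate 2, which held 5 of them. Adamts17 had 80, 130 and 108 counts in PFOA and 44, 43 and 43 counts in control, 2.52-fold higher. Adamts19 had 157, 213 and 255 counts in PFOA and 70, 138 and 118 counts in control, 1.98-fold higher, and was the least changed member. Its edgeR call (log2 fold change 0.97 ± 0.32, SE; adjusted p = 0.0176) was lost without PFOA replicate 3 (adjusted p = 0.0561), control replicate 1 (adjusted p = 0.0748) or control replicate 3 (adjusted p = 0.0775). Adamtsl1, which resembles this family without a protease domain, had 489, 512 and 518 counts in PFOA and 369, 174 and 200 counts in control, with a log2 fold change of 1.07 ± 0.33 (SE; edgeR adjusted p = 0.0133). That call was lost without control replicate 2 (edgeR adjusted p = 0.0552), without control replicate 3 (edgeR adjusted p = 0.0740) and with library totals in place of TMM scaling (edgeR adjusted p = 0.0528). The Adamtsl1 locus overlaps the listed row of Sh3gl2 on the same strand, which was also higher.

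Pappa2, pappalysin 2, which frees insulin-like growth factors from their binding proteins, had 10, 18 and 16 counts in PFOA and 1133, 819 and 897 counts in control. It was 62.8-fold lower (log2 fold change -5.97 ± 0.32, SE; edgeR adjusted p = 3.92e-05), a difference far beyond the spread within either group. The row, on the minus strand at chr1:158711727-158980490 in mm10, is merged with the overlapping non-coding gene 1600012P17Rik, so its reads cannot be assigned between the pair. Mep1a, the alpha subunit of the brush border protease meprin, had 9379, 9215 and 8802 counts in PFOA and 3723, 4181 and 4903 counts in control, 2.21-fold higher (log2 fold change 1.15 ± 0.21, SE; edgeR adjusted p = 0.00182). Adamdec1, an ADAM-like protease known from macrophages and stroma of the human gut, had 8352, 7926 and 10088 counts in PFOA and 2551, 3422 and 3538 counts in control, 2.86-fold higher (log2 fold change 1.52 ± 0.23, SE; edgeR adjusted p = 8.35e-04). Replicates of both genes were even, with the highest library of a group no more than 1.33 times the lowest in CPM. Of 12 macrophage and monocyte markers, none had a row. Adam2 and Adam18, sperm surface proteins counted here by family, lack a working protease site and were too low to be tested. Adam2 had 1, 0 and 1 counts in PFOA and 4, 11 and 5 counts in control, and Adam18 had 9, 5 and 6 counts in PFOA and 1, 1 and 2 counts in control.

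Serine proteases were lower in 4 of 5 rows. Beside Klk15 and Tmprss13, Tmprss2, a membrane serine protease of epithelia known for activating viral envelope proteins, had 4572, 3840 and 3702 counts in PFOA and 12087, 10085 and 11954 counts in control. It was 2.73-fold lower (log2 fold change -1.44 ± 0.24, SE; edgeR adjusted p = 0.00122), and all control libraries lay well above all PFOA libraries. Prss41, a testis serine protease in mouse, had 59, 56 and 66 counts in PFOA and 175, 89 and 123 counts in control, and its edgeR call (adjusted p = 0.0154) was lost without PFOA replicate 2 (adjusted p = 0.0565). Prss23, a secreted serine protease, was the only higher row of this kind, with 496, 1743 and 1301 counts in PFOA and 486, 541 and 514 counts in control. PFOA replicate 1 lay within the control range in raw counts, the only such overlap among the 41 members, and just above it in CPM, at 266 against 237, 262 and 233 in control. That place depended on its TMM factor of 0.857. Scaled by listed counts alone, PFOA replicate 1 lay below every control library. The edgeR call of Prss23 (log2 fold change 1.21 ± 0.38, SE; adjusted p = 0.0157) was lost without PFOA replicate 2 (adjusted p = 0.0505), control replicate 1 (adjusted p = 0.0693) or control replicate 3 (adjusted p = 0.0720).

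Cathepsins and carboxypeptidases were mixed. Ctse, an aspartic protease of stomach and gut epithelium, had 136, 110 and 161 counts in PFOA and 831, 388 and 622 counts in control, 4.39-fold lower (edgeR adjusted p = 0.00104). Ctsk, a collagen-cutting cysteine protease best known from bone-resorbing cells, had 85, 103 and 107 counts in PFOA and 280, 206 and 202 counts in control, 2.26-fold lower. Ctsw, a cysteine protease of cytotoxic lymphocytes, had 135, 118 and 114 counts in PFOA and 61, 37 and 50 counts in control, 2.56-fold higher (edgeR adjusted p = 0.00440). Ctsw thus went with lymphocyte genes: 6 of 12 T and natural killer cell markers had a row and all 6 were higher. They were Cd8a, Gzma, Gzmb, Klrd1, Ncr1 and Nkg7, while defining T cell markers such as Cd3e, Trac and Cd4 had no row. The 6 markers of these lymphocytes had a summed level of 128 to 300 CPM in PFOA and 46.9 to 72.2 CPM in control. Whether more of these cells or more RNA per cell lay behind such levels cannot be told apart in bulk tissue, here or for any other member. Cpb1, a pancreatic carboxypeptidase, had 0, 0 and 2 counts in PFOA and 5, 7 and 4 counts in control. Cpb2, a carboxypeptidase of plasma that slows clot lysis, had 3, 8 and 8 counts in PFOA and none in control, at least 6.53-fold higher (4.25 to 7.90 with a library left out), and neither was high enough to be tested.

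**Figure D2:**
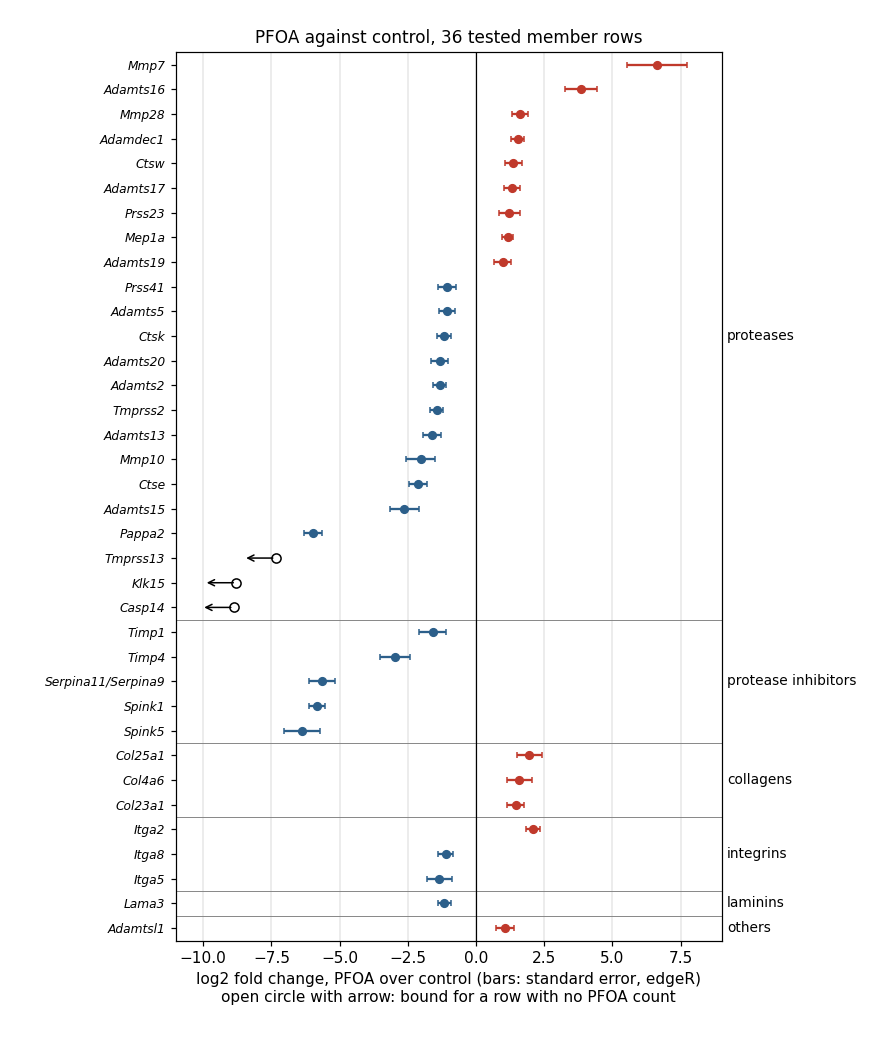
Log2 fold change of PFOA over control for the 36 tested members by class, with points for edgeR's estimate and bars for its standard error. Open circles with an arrow give the bound for Casp14, Klk15 and Tmprss13, which had no PFOA count; all inhibitors lie left of 0 and all collagens right of it, and most other members lie close to 1 or -1, the edges of the gap that the selection of rows left.

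The protease inhibitors were lower in all 5 rows, by a median log2 fold change of -5.65. Spink1, the secreted trypsin inhibitor first known from pancreas, had 22, 38 and 42 counts in PFOA and 2025, 1825 and 2062 counts in control. It was 56.2-fold lower (log2 fold change -5.82 ± 0.29, SE; edgeR adjusted p = 3.92e-05), with even replicates in control. Per kilobase of the deposited row length, Spink1 was at 22.5 CPM per kb in PFOA and 1283 CPM per kb in control, the highest control value of the 41 members. In PFOA colon the highest value per length was that of Adamdec1, at 1684 CPM per kb, against 587 CPM per kb in control. Of 14 pancreatic acinar markers, Cela1 and Pnliprp1 had a row, and both were lower in PFOA. Cela1, an elastase of pancreas and gut, had 129, 132 and 118 counts in PFOA and 3239, 1946 and 2048 counts in control. Defining acinar genes such as Pnlip, Ctrb1 and Amy2a5 had no row, and the part of pancreatic tissue in the Spink1 level was not tested.

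Spink5, whose protein LEKTI restrains skin kallikreins, lies 226 kb from Spink1 on chromosome 18 and was lower too. It had 0, 1 and 1 counts in PFOA and 69, 39 and 95 counts in control, a control-to-PFOA ratio of 98.5 with an exact 95% counting interval from 26.9 to 818. The row that merges Serpina11 and Serpina9 with a non-coding transcript had 3, 3 and 1 counts in PFOA and 154, 94 and 136 counts in control, 53.2-fold lower (log2 fold change -5.65 ± 0.48, SE; edgeR adjusted p = 1.08e-04). Serpina9 is known from germinal centre B cells in human; of 9 B and plasma cell markers, none had a row.

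Timp1 and Timp4, which block matrix metalloproteases, were lower at low counts. Timp4 had 12, 5 and 11 counts in PFOA and 126, 47 and 56 counts in control, 7.93-fold lower (log2 fold change -2.97 ± 0.56, SE; edgeR adjusted p = 0.00201). Its locus lies within that of Syn2 on the other strand, which was also lower, and without a stated strand setting their reads cannot be told apart. Timp1 had 5, 4 and 12 counts in PFOA and 24, 27 and 14 counts in control, so that PFOA replicate 3 came close to control replicate 3. The edgeR call of Timp1 (log2 fold change -1.58 ± 0.50, SE; adjusted p = 0.0147) was lost without PFOA replicate 2 (adjusted p = 0.0598).

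The 3 collagens were all higher, between 2.77- and 3.97-fold. Col23a1, a collagen that spans the cell membrane, had 368, 807 and 718 counts in PFOA and 186, 259 and 259 counts in control (log2 fold change 1.45 ± 0.30, SE; edgeR adjusted p = 0.00283). It lies 482 kb from Adamts2 on chromosome 11, which was lower. Col25a1, another membrane-spanning collagen, had 36, 126 and 100 counts in PFOA and 18, 23 and 27 counts in control (log2 fold change 1.96 ± 0.46, SE; edgeR adjusted p = 0.00478). PFOA replicate 1 was the lowest of its group in both Col23a1 and Col25a1. The Col25a1 locus overlaps the listed row of Gm43210 on the same strand, which was also higher, with 5, 17 and 9 counts in PFOA and 0, 0 and 1 counts in control. Col4a6, a basement membrane chain, had 34, 25 and 32 counts in PFOA and 11, 15 and 5 counts in control (log2 fold change 1.59 ± 0.45, SE; edgeR adjusted p = 0.00972), a call that was lost without control replicate 3 (edgeR adjusted p = 0.0501). The fibril-forming collagens of the bowel wall, such as Col1a1 and Col3a1, had no row. Markers of several other cell types were higher beside the collagens. Adipocyte markers had 5 of 8 rows, all higher by group mean. Their summed level was 72.5 to 1033 CPM in PFOA, lowest in PFOA replicate 2, and 13.1 to 56.6 CPM in control. In PFOA replicate 2, Plin1 and Adipoq had 0 counts, Car3 had 7 and Cfd had 3. Control libraries held 59, 22 and 8 counts of Car3 and 32, 25 and 3 counts of Cfd. Only Cidec, at 144 counts, stood above every control library in PFOA replicate 2. Mesothelium markers had 2 of 6 rows, both higher, with summed levels of 33.1 to 38.6 CPM in PFOA and 5.36 to 16.9 CPM in control. Of 12 markers of enteric neurons and glia only Gfap, a filament protein of glia, had a row, with 102, 129 and 107 counts in PFOA and 38, 33 and 41 counts in control. Mast cell markers had 2 of 10 rows, Mcpt1 and Mcpt2, both higher and too low to be tested. Their summed levels were 5.65 to 26.3 CPM in PFOA and 0.453 to 0.975 CPM in control. Cma1, a mast cell chymase outside that marker list, went the other way, with 1, 0 and 0 counts in PFOA and 25, 9 and 6 counts in control. The part of these cell types in the levels of the collagens and other higher members was not tested.

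Integrin subunits were split. Itga2, the alpha subunit of a collagen receptor, had 2218, 3680 and 3899 counts in PFOA and 665, 847 and 845 counts in control, 4.29-fold higher (log2 fold change 2.08 ± 0.24, SE; edgeR adjusted p = 3.62e-04). Its row lies on the minus strand at chr13:114833081-114932100 in mm10, and all PFOA libraries were far above the control libraries. Itga5, the alpha subunit of the main fibronectin receptor, had 487, 677 and 671 counts in PFOA and 2795, 876 and 1061 counts in control. The Itga5 row joins 2 reference gene identifiers under that name, so its reads cannot be assigned between them. Control replicate 1 again stood apart, and without it the log2 fold change moved from -1.34 ± 0.45 (SE; edgeR adjusted p = 0.0189) to -0.73 (adjusted p = 0.0168). Itga8, a subunit of the nephronectin receptor known from smooth muscle and mesenchyme, had 129, 230 and 255 counts in PFOA and 373, 418 and 570 counts in control, 2.15-fold lower (edgeR adjusted p = 0.00640). Itgad, a subunit of leukocyte integrins, was too low to be tested, with 18, 6 and 18 counts in PFOA and 4, 3 and 3 counts in control. Lama3, a chain of the laminin that anchors epithelium to its basement membrane, had 883, 1493 and 1614 counts in PFOA and 3537, 2706 and 2809 counts in control, 2.20-fold lower (log2 fold change -1.16 ± 0.25, SE; edgeR adjusted p = 0.00365). No integrin beta subunit had a row.

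**Figure D3:**
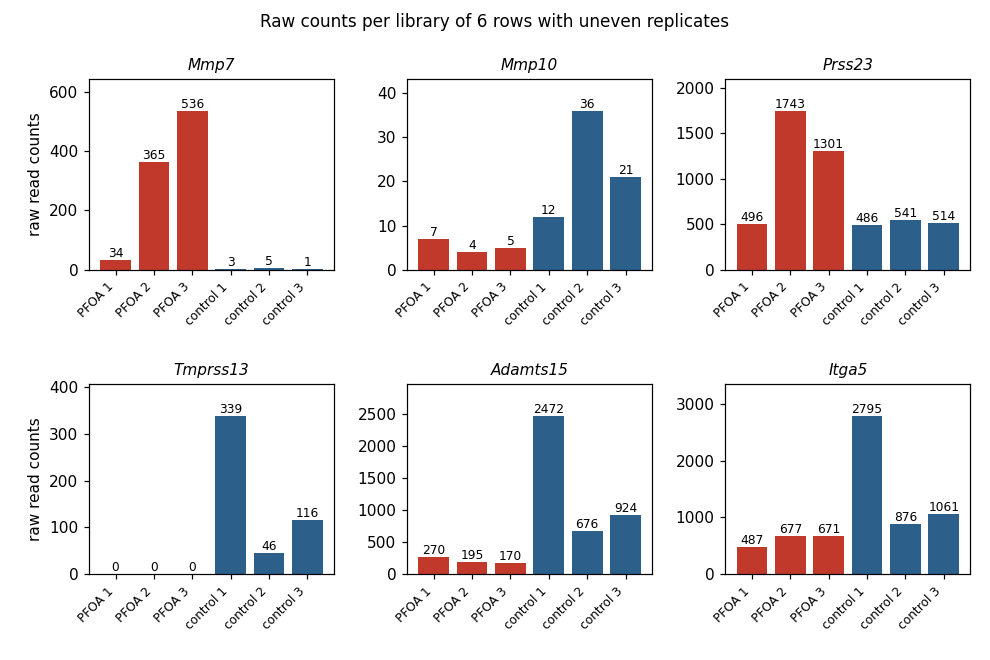
Raw read counts per library for 6 members with uneven replicates, red bars for the PFOA libraries and blue bars for the control libraries. PFOA replicate 1 is the low library of its group for Mmp7 and Prss23, and control replicate 1 is the high library of its group for Tmprss13, Adamts15 and Itga5, while Mmp10 had uneven control libraries; this set was chosen after the values were seen.

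Control replicate 1 was the highest control library in CPM for 16 of the 24 members that were lower in PFOA, and for 21 of all 41 members (51.2%, against 37.7% of all listed rows). Its level of Cnn1, a smooth muscle protein and the only 1 of 11 smooth muscle markers with a row, was also the highest, with 2758, 4210 and 4489 counts in PFOA and 12148, 5275 and 7665 counts in control. Markers of other tissues also set control replicate 1 apart. It had the most counts of the control libraries for Cela1, Krt16 and Pnliprp1. Distal colon markers went both ways in it, with Atp12a and Car4 lowest and Best2 and Scnn1g highest among controls. The part of smooth muscle or of any other tissue in the levels of Itga5, Adamts15 and Tmprss13 was not tested. Fibroblast markers had 3 of 12 rows, all lower, with a summed level of 164 to 387 CPM in PFOA and 739 to 750 CPM in control. Endothelial markers had 1 of 10 rows, Lyve1, and skeletal muscle markers 1 of 8 rows, Myh2, and both were lower.

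Matrix and protease genes outside the families of the rule were counted in 5 lists. Some of them, such as Cela1, Gzma, Gzmb, Lyve1, Mfap5 and Pi16, are also cell type markers counted above. Matrix glycoproteins and proteoglycans had 10 rows of 61 genes, 3 higher and 7 lower, all 10 tested and past the test, as were 100% of all tested rows. Fn1, fibronectin, the ligand of the receptor that holds Itga5, had 5608, 5966 and 7267 counts in PFOA and 24102, 14232 and 20526 counts in control, 3.03-fold lower. Npnt, nephronectin, the ligand of the receptor that holds Itga8, went the other way from its receptor subunit, with 136, 174 and 230 counts in PFOA and 55, 56 and 100 counts in control. Thbs4, thrombospondin 4, had 34, 262 and 346 counts in PFOA and 9387, 8013 and 9679 counts in control, 40.9-fold lower. Matrix synthesis and crosslinking enzymes, listed by gene name, had 4 rows of 29 genes, 1 higher and 3 lower. Whether each of these proteins acts on matrix was not tested. Tgm3, a transglutaminase that crosslinks proteins, had 8, 32 and 44 counts in PFOA and 7005, 13944 and 16031 counts in control, 427-fold lower (log2 fold change -8.75 ± 0.69, SE).

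The list of other extracellular proteases had 18 rows of 76 genes, 10 higher and 8 lower, with 8 higher and 7 lower among the 15 tested. These rows include F3 and Cpn2, both lower, and Dpp10, which was higher, and these proteins are not active proteases themselves. Naaladl1, a peptidase of the ileal brush border in rat, had 191, 930 and 1060 counts in PFOA and 192, 113 and 140 counts in control, so that PFOA replicate 1 lay within the control range in raw counts. Other protease inhibitors had 10 rows of 49 genes, 3 higher and 7 lower, with 3 higher and 6 lower among the 9 tested. That list was drawn up by gene name, and whether each of its proteins blocks a protease was not tested. Rows that were lower there included Wfdc2, a small secreted WAP-domain protein, with 4, 63 and 53 counts in PFOA and 3040, 1844 and 2121 counts in control. Itih2, a chain of the plasma inter-alpha-trypsin inhibitor, was lower too, with 0, 6 and 1 counts in PFOA and 331, 210 and 200 counts in control. Those that were higher, Ambp, Cst6 and Wfdc18, did not exceed 49 counts in any library. Among the lower rows, Hrg and Csta1 did not exceed 26 counts in any library. Matrix receptors other than integrins had 4 rows of 29 genes, 2 higher and 2 lower, among them the hyaluronan receptor Cd44, with 3812, 4379 and 4496 counts in PFOA and 1488, 2020 and 2131 counts in control.

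**Figure D4:**
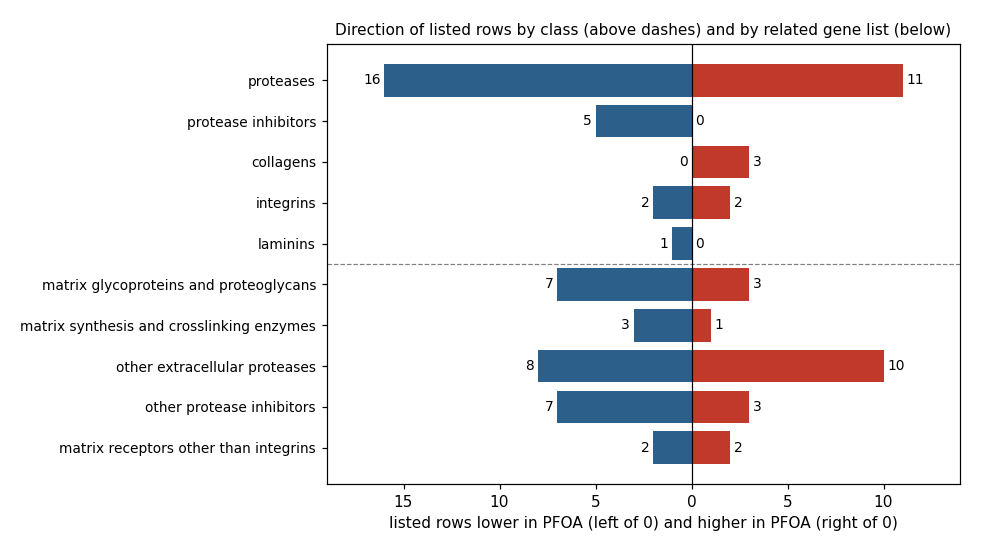
Number of listed rows lower in PFOA (bars to the left of 0) and higher in PFOA (bars to the right) for 5 classes of members above the dashed line and for 5 lists of related genes below it. The inhibitors of the rule are lower in 5 of 5 rows and other protease inhibitors, listed by gene name, in 7 of 10. The list of other extracellular proteases is higher in 10 of 18 rows and includes F3, Cpn2 and Dpp10, which are not active proteases.

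Markers of gut position moved beside the members. Of 12 colonocyte markers of the distal colon, 10 had a row, 1 higher and 9 lower in PFOA, and of 15 small intestinal enterocyte markers 6 had a row, 5 higher and 1 lower. Atp12a, the proton-potassium pump of the distal colon, had 98, 157 and 130 counts in PFOA and 9456, 14594 and 22953 counts in control. Car1, a carbonic anhydrase, was the exception among the colonocyte markers, with 125029, 39638 and 50026 counts in PFOA and 5727, 17063 and 10999 counts in control. With Car1 included, the summed level of the colonocyte markers overlapped between the groups, at 32370 to 92823 CPM in PFOA and 52178 to 78009 CPM in control. Among the enterocyte markers the exception was Rbp2, a retinol-binding protein, with 144, 69 and 79 counts in PFOA and 426, 515 and 487 counts in control. The summed level of the enterocyte markers was 5623 to 11390 CPM in PFOA and 688 to 1775 CPM in control. The part of gut position in the members' levels was not tested.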

How the data were processed

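RNA of mouse colon from 3 PFOA and 3 control libraries was measured by sequencing, prepared with a SMARTER kit, per the labels' protocols. HISAT2, HTSeq and the mm10 build appear, unversioned, in the submitters' processing notes. The authors deposited raw read counts for 2033 gene rows (26 of the 41 member rows carry identifiers of assembled loci), and how rows were selected, strand use and multi-mapping reads are points not given in the sources used. The deposited row length, another kind of value, served for levels per kb. The main test was edgeR 4.0.16 in R 4.3.3 on the whole table: 1608 rows passed filterByExpr and were scaled by TMM, and the quasi-likelihood test (glmQLFit, glmQLFTest) of PFOA against control was two-sided, with Benjamini-Hochberg adjustment over all tested rows at 0.05. The largest adjusted p was 0.0408. Standard errors are the absolute log2 fold change divided by the square root of F. Plain folds are ratios of summed counts scaled by TMM-adjusted totals; a group without counts got a floor of 3 counts over the group, and a group holding from 1 to 3 counts has its ratio given with a 95% Clopper-Pearson interval; floor and interval cover counting error only. The edgeR step was run on simulated data in which most rows were unchanged. The rows listed here all differ, so that run does not bear on these calls. No replicate pair looked like a duplicate (chi-square per degree of freedom at least 24.4). Alternatives were DESeq2 1.42.0, limma-voom (limma 3.58.1), other scalings and filters, the replicate number as a block, and leaving out each library. The members and gene lists were chosen with earlier results of these data known. All members may be named; full statistics went to up to 5 tested members per class with the largest fold change, the 2 most abundant, and those with no count in a group or overlapping groups, and to other members where a call or value changed. Motifs were chosen with the members' values known.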

Additional observations from a re-analysis of the deposited data

How the results depend on the processing

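No tested member changed direction, though rows selected to differ, with groups apart in CPM, left little room for a reversal. Over 36 members and 13 alternative settings, 455 of 468 comparisons kept their direction and side of the threshold and 13, of 7 members, lost the edgeR call. Members called were 11 to 14 higher and 20 to 22 lower when each library was left out, and 17 higher and 24 lower without a filter or with 1 CPM in 3 libraries, since more rows are then tested. Integrins called higher were 2 under both of these filters, where Itgad is tested, and 1 to 2 with a library left out. Adamtsl1, the only row outside the classes, was called higher in 0 rows with library totals and in 0 to 1 with a library left out. Library totals moved the median log2 fold change of all rows by -0.20.

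With the replicate number as a block, integrins called lower fell to 1, as Itga5 lost its call (edgeR adjusted p = 0.0511), and 780 higher and 799 lower rows passed over the whole table, against 804 and 804. Deviations of same-numbered libraries from their group means correlated at 0.107, -0.028 and 0.101 for numbers 1, 2 and 3, and PFOA replicate 2 correlated most with control replicate 3 (0.122), so the numbers were not taken as pairs.

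Low counts limit Timp1, Timp4, Mmp10, Col4a6 and Adamts16, and 5 members were too low to be tested.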
